A study of Mus musculus with 6 samples.

Results

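The interferon-inducible GTPases described here are the guanylate-binding protein genes Gbp2, Gbp3 and Gbp7 and the immunity-related GTPase genes Irgm1 and Igtp. They are the 5 genes, of 10539 genes in the deposited table, whose symbols equal those names, and all 5 were listed. RNA was sequenced from alveolar macrophages of C57BL/6 mice, which patrol the air spaces of the lung. All cells overexpressed the transcription factor C/EBPβ. There were 3 libraries labelled CEBPβ and 3 labelled CEBPβ-A, the latter from cells that also received an adenovirus carrying A20, a ubiquitin-editing brake on NF-κB signalling encoded by Tnfaip3. The sources used here do not say how C/EBPβ was overexpressed, which virus the CEBPβ cells received or how old the mice were. Cells with normal C/EBPβ were not analysed here. Since the labels tie the 3 libraries of a group neither to separate mice nor to separate cultures, p-values measure the spread among libraries alone, and that spread may be technical.

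Guanylate-binding proteins are large GTPases that assemble on pathogen vacuoles and on bacteria in the cytosol, open them, and expose their contents to inflammasome sensors. Immunity-related GTPases act on the same vacuoles. Irgm1 and Igtp (also called Irgm3) belong to the regulatory subfamily, which sits on the cell's own membranes and keeps effector GTPases from attacking them. Both families are induced by interferon gamma through GAS elements and IRF1, and by type I interferon through interferon-stimulated response elements (ISREs), which a complex with STAT2 and IRF9 binds. In macrophages they are a main arm of cell-autonomous defence.

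The promoters of the members are shown because all 5 genes share the letters of an ISRE core close to the transcription start. Each line gives 110 bases before and 10 bases after a RefSeq transcription start (GRCm38.p6), 5′ to 3′ on the strand of the gene, with matches to the ISRE core (GAAA and GAAA with any 2 bases between them, on either strand) in capitals. Overlapping matches form 1 capital run.
Gbp2, chr3:142620553-142620672, plus strand: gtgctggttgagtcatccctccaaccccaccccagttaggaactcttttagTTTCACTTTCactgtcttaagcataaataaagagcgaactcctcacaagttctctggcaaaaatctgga
Gbp3, chr3:142559934-142560053, plus strand: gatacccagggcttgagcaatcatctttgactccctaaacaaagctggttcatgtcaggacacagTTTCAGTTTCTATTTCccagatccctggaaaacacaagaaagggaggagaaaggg
Gbp7, chr3:142530226-142530345, plus strand: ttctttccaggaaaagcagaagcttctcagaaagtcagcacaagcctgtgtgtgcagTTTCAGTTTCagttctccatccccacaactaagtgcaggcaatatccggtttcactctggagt
Irgm1, chr11:48871411-48871530, minus strand: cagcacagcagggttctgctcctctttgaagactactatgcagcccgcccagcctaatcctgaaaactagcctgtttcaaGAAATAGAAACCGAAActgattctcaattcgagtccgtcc
Igtp, chr11:58199446-58199565, plus strand: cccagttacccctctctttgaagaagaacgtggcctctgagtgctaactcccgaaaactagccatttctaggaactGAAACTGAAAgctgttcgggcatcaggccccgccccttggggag

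In windows from 250 bases before to 50 after the start, Gbp2, Gbp7 and Igtp each had 1 match to the ISRE core, and Gbp3 and Irgm1 had 2 overlapping matches each. The match of Gbp2 began 59 bases before the start, that of Gbp7 53 and that of Igtp 34 bases before it. The first match of Gbp3 began 45 and that of Irgm1 30 bases before the start. The match lay on the complementary strand in the 3 guanylate-binding genes and on the gene's own strand in Irgm1 and Igtp. A second RefSeq start of Gbp3 had no match. Of 7600 tested genes with a window, 3.88% had a match, and 3.44% of all 32851 RefSeq windows had one. Among the other interferon-inducible GTPases listed, 3 of the 5 genes with a window had a match (Gbp5, Gbp2b and Irgm2), so the core was not limited to the members. The GAS core TTCNNNGAA, which reads the same on both strands, occurred at 2 places in the window of Gbp7, at 1 place in that of Igtp and at 0 in those of Gbp2, Gbp3 and Irgm1, against 8.28% of the tested genes. In Igtp it ended 37 bases before the start, just ahead of the ISRE core. A match describes letters only and does not show that a factor bound there.

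Levels are given in FPKM, a fragment count relative to gene length and library size, as deposited, so they can be compared between genes. The order of the members by FPKM was the same in all 6 libraries: Gbp2 first, then Irgm1, Igtp, Gbp3 and Gbp7. Gbp2 stood at the 85.1st percentile of tested genes by mean level and Gbp7 at the 29.8th. In CEBPβ the 3 values of neighbouring members in this order did not overlap. In CEBPβ-A the values of Irgm1 overlapped those of Igtp, and the values of Igtp overlapped those of Gbp3.

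All 5 members had a lower mean in CEBPβ-A than in CEBPβ, by 19.3% (Irgm1) to 49.9% (Gbp7) of the FPKM mean, and none passed the test over all genes. The groups did not overlap for Gbp2, Gbp7, Irgm1 and Igtp, and they overlapped for Gbp3. Genes were tested with limma on the log2(FPKM + 1) scale, CEBPβ-A minus CEBPβ, over the 9617 genes with a mean of at least 1 FPKM. That scale understates the change of low genes. The limma adjusted p was 0.588 for each of the 5 members, because Benjamini-Hochberg adjustment gives the same value to a long run of ranked genes. Over all genes 5 passed at 0.05, 0.052% of those tested, and 0.0312% passed downward. In bulk RNA, fewer cells of a type and less RNA per cell cannot be told apart.

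**Figure D1:**
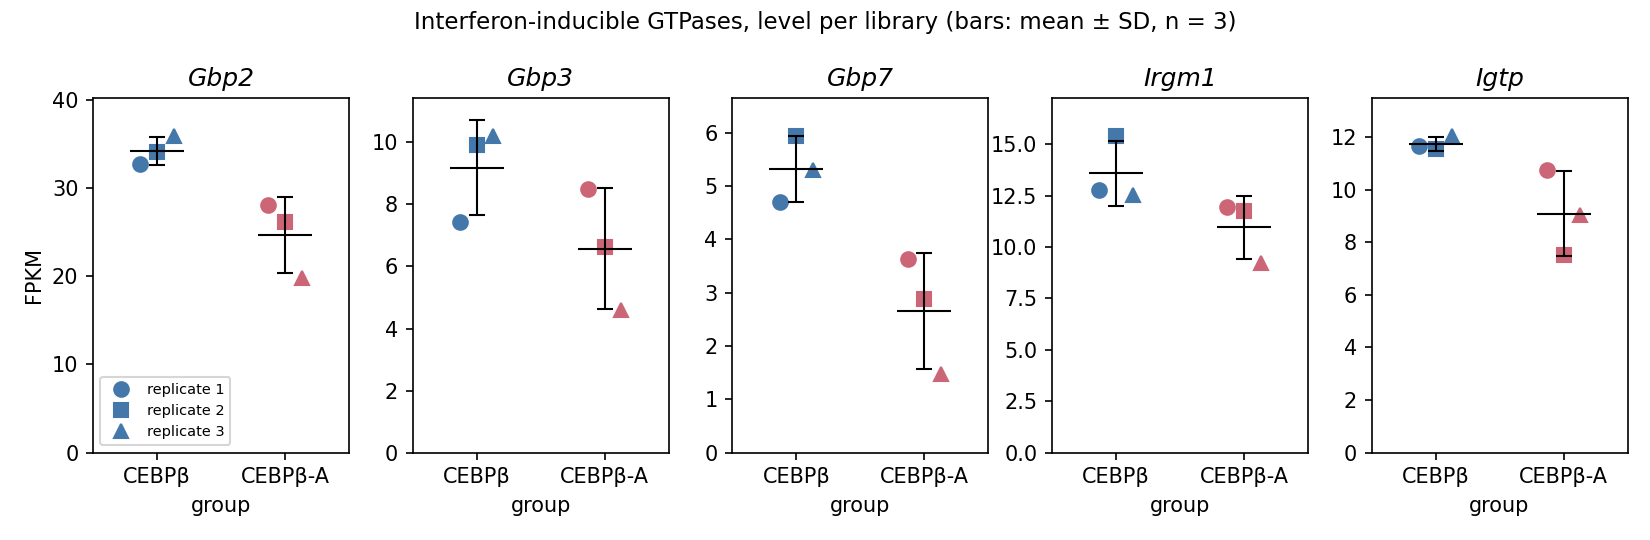
FPKM of the 5 members in each library, 1 panel a gene, with CEBPβ in blue and CEBPβ-A in red; marker shapes give the replicate number, and black bars give mean ± SD (n = 3 libraries). The groups separate in every panel except that of Gbp3, where CEBPβ-A replicate 1 at 8.49 lies above CEBPβ replicate 1 at 7.42.

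Gbp2 (ENSMUSG00000028270.12, GRCm38 chromosome 3, 142620602 to 142638008), a guanylate-binding protein that is recruited to pathogen vacuoles and promotes their lysis, had 32.7, 34.0 and 35.9 FPKM in CEBPβ replicates 1, 2 and 3. In CEBPβ-A replicates 1, 2 and 3 it had 28.1, 26.2 and 19.9 FPKM. All 3 values of CEBPβ-A were below those of CEBPβ, with replicate 3 the lowest. The means were 24.7 ± 4.30 against 34.2 ± 1.59 FPKM (SD, n = 3 each). The log2 fold change was −0.47 (SE 0.13, 95% interval −0.76 to −0.18, limma adjusted p = 0.588).

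Gbp3 (ENSMUSG00000028268.14, chromosome 3, 142560026 to 142573209), a relative from the same gene cluster, had 7.42, 9.93 and 10.2 FPKM in CEBPβ. The CEBPβ-A libraries had 8.49, 6.62 and 4.59 FPKM. The groups overlapped, since CEBPβ replicate 1 was lower than CEBPβ-A replicate 1. The means were 6.57 ± 1.95 against 9.18 ± 1.53 FPKM, with a log2 fold change of −0.45 (SE 0.20, 95% interval −0.92 to 0.016, limma adjusted p = 0.588). This was the only member whose interval held 0.

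Gbp7 (ENSMUSG00000040253.15, chromosome 3, 142530342 to 142550149), a guanylate-binding protein linked to defence against vacuolar bacteria and to oxidase assembly in macrophages, had 4.70, 5.94 and 5.31 FPKM in CEBPβ. It had 3.63, 2.89 and 1.47 FPKM in CEBPβ-A. The groups did not overlap, and CEBPβ-A replicate 3 was the lowest library. The mean was 2.66 ± 1.09 against 5.32 ± 0.622 FPKM, and the log2 fold change of −0.83 (SE 0.22, 95% interval −1.34 to −0.32, limma adjusted p = 0.588) ranked 20 of 9617 from the lowest. A processed pseudogene, Gm43802, shares 637 of the 5614 exon bases of Gbp7 on the same strand in GENCODE M21, so reads may be shared there.

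Irgm1 (ENSMUSG00000046879.7, chromosome 11, 48861968 to 48871683), a regulator of autophagy and of effector GTPases, had 12.8, 15.4 and 12.6 FPKM in CEBPβ. It had 11.9, 11.7 and 9.21 FPKM in CEBPβ-A. The groups did not overlap, but the gap between the nearest libraries was only 0.609 FPKM, less than the SD of either group. The means were 10.96 ± 1.52 against 13.6 ± 1.58 FPKM, and the log2 fold change was −0.29 (SE 0.12, 95% interval −0.58 to −0.0015, limma adjusted p = 0.588).

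Igtp (ENSMUSG00000078853.8, chromosome 11, 58199556 to 58207591), a regulatory GTPase of the endoplasmic reticulum and lipid droplets, had 11.7, 11.5 and 12.0 FPKM in CEBPβ. It had 10.7, 7.51 and 9.02 FPKM in CEBPβ-A. The CEBPβ libraries were nearly level, with a coefficient of variation of 2.27% against 17.8% in CEBPβ-A, and the groups did not overlap. The means were 9.09 ± 1.62 against 11.7 ± 0.267 FPKM, and the log2 fold change was −0.35 (SE 0.12, 95% interval −0.63 to −0.068, limma adjusted p = 0.588). Igtp was the only member whose lowest library was CEBPβ-A replicate 2, the other 4 being lowest in replicate 3. Its exons share 162 bases on the same strand with the neighbouring Irgm2, so reads in that stretch cannot be assigned to 1 gene with certainty.

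As a group, 5 of 5 members had a negative log2 fold change, with a median of −0.45, where the median of all tested genes was −0.013 and 53.4% were negative. The groups did not overlap, with the lower values in CEBPβ-A, for 4 of 5 members, against 8.86% of all genes tested (16.8% in either direction). The unadjusted limma p was under 0.05 and the fold change negative for 4 of 5 members, against 4.42% of all genes tested (8.18% in either direction). The members were chosen with earlier results of these data known, so these counts describe them and are no independent test.

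Gbp7 had a smaller share of the members' summed level in each CEBPβ-A library than in any CEBPβ library. Gbp7 made up 6.78%, 7.73% and 6.99% of the summed FPKM of the 5 members in CEBPβ replicates 1, 2 and 3. In CEBPβ-A replicates 1, 2 and 3 it made up 5.77%, 5.25% and 3.34%. The ratio of Gbp2 to Gbp7 was 6.97, 5.73 and 6.76 in CEBPβ and 7.74, 9.07 and 13.5 in CEBPβ-A, without overlap. By contrast, the ratio of Gbp2 to Gbp3 ran from 3.43 to 4.41 in CEBPβ and from 3.31 to 4.33 in CEBPβ-A. These ratios were chosen after the values were seen and were not tested. The summed FPKM of the members was 74.1 ± 4.13 in CEBPβ and 54.0 ± 9.39 in CEBPβ-A (SD, n = 3 each).

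On the first principal component of all tested genes (44.3% of the variance) CEBPβ-A replicate 3 scored 25.7 and the other 5 libraries −11.7 to −0.095. Across 9570 genes, which are not independent replicates, the log2 fold change had a Spearman rho of −0.43 with transcript length, and of −0.26 without CEBPβ-A replicate 3. The part of either in the members' values was not tested beyond what follows. Without CEBPβ-A replicate 3 the log2 fold changes were −0.33 for Gbp2, −0.25 for Gbp3, −0.57 for Gbp7, −0.18 for Irgm1 and −0.35 for Igtp, so those of Gbp3 and Irgm1 shrank by more than 1.5 times. The limma adjusted p was then 0.558 for Gbp2 and Gbp7, 0.916 for Gbp3 and Irgm1 and 0.899 for Igtp. The groups did not overlap for the same 4 of 5 members, but leaving out a library cannot make separated groups overlap. Without CEBPβ-A replicate 2 the log2 fold change of Igtp was −0.23, also over 1.5 times smaller. With the trend on transcript length removed from each library, the log2 fold changes were −0.43, −0.47, −0.73, −0.27 and −0.35 for Gbp2, Gbp3, Gbp7, Irgm1 and Igtp.

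**Figure D2:**
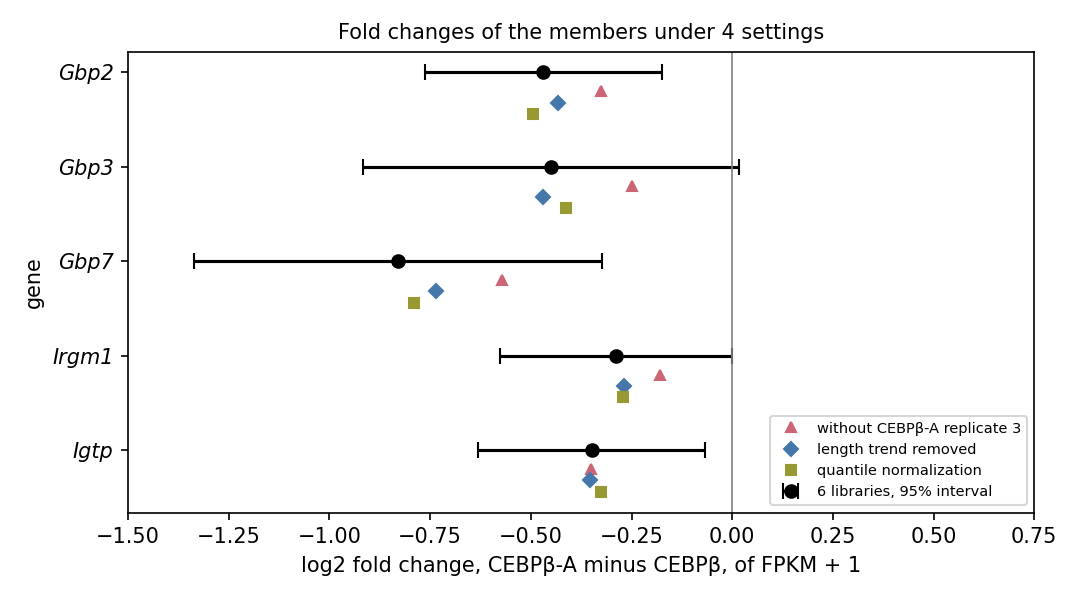
Log2 fold change of FPKM + 1, CEBPβ-A minus CEBPβ, for each member; black points and bars are the limma estimate and its 95% interval from 6 libraries, triangles the value without CEBPβ-A replicate 3, diamonds with the length trend removed, squares after quantile normalization. Every marker lies below 0, from −0.18 (Irgm1 without that replicate) to −0.83 (Gbp7, 6 libraries).

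Tnfaip3, the gene of A20, was not higher in the libraries labelled CEBPβ-A. It had 8.76, 17.7 and 19.2 FPKM in CEBPβ and 7.94, 15.5 and 7.32 in CEBPβ-A (log2 fold change −0.53, limma adjusted p = 0.606). Cebpb had 429 ± 66.6 FPKM in CEBPβ and 411 ± 70.5 in CEBPβ-A (n = 3 each, limma adjusted p = 0.888). The sources used here do not give the species or sequence of the delivered A20, so Tnfaip3 FPKM may not count it, and exchanged labels cannot be told apart from this. Every direction given here is therefore between libraries as labelled. All 10 alveolar macrophage markers were listed, with summed levels of 26093 to 35729 FPKM in CEBPβ and 28326 to 37553 in CEBPβ-A, most of it Lyz2. Of the 10 markers 7 had a positive and 3 a negative log2 fold change (median 0.11), and 0 passed by limma. At an unadjusted limma p under 0.05, 2 were higher and 0 lower, where 8.18% of all genes tested passed in either direction. For 16.8% of all genes tested the groups did not overlap, in either direction. Car4 (45.6 ± 2.08 against 66.5 ± 11.2 FPKM, CEBPβ first), Ear2 (722 ± 50.6 against 918 ± 78.2) and Pparg (37.8 ± 0.682 against 41.6 ± 1.29) had the higher values in CEBPβ-A without overlap, and Itgax (512 ± 6.06 against 476 ± 21.5) the lower (n = 3 each). Of 11 T and NK cell markers, which include Ifng, the gene of interferon gamma, 0 were listed, and likewise 0 of 5 B cell, 0 of 4 endothelial and 0 of 4 fibroblast markers. Of 8 neutrophil markers 3 were listed, with a sum of 214 to 263 FPKM in CEBPβ and 298 to 317 in CEBPβ-A, with S100a8 alone at 199 to 251 and 286 to 303. Of 7 monocyte and interstitial macrophage markers 6 were listed, with a sum of 8.02 to 8.81 FPKM in CEBPβ and 6.60 to 7.38 in CEBPβ-A. Of 8 epithelial markers 3 were listed, with a sum of 29.1 to 39.3 FPKM in CEBPβ and 33.3 to 67.1 in CEBPβ-A, the highest in replicate 3. Of 5 dendritic cell markers 1 was listed, at up to 0.467 FPKM. The row filter is not given in the sources used here, so a marker that is not listed may still be expressed. The part of these markers in the lower GTPase levels was not tested.

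The remaining interferon-inducible GTPases were described from a list of 19 genes, of which 11 were listed and 9 tested. None passed over all genes in either direction (0 of 9 by limma), and 8 had a negative and 1 a positive log2 fold change, with a median of −0.64. At an unadjusted limma p under 0.05, 5 of 9 were lower and 0 higher, where 4.42% of all genes tested were lower. The groups did not overlap, with the lower values in CEBPβ-A, for 5 of 9, where the share over all genes was 8.86%. The 5 were Gbp6, Gbp8, Gbp9, Gbp10 and Irgq. Without CEBPβ-A replicate 3 the median was −0.32. Per library, the median log2 difference from the CEBPβ mean was −0.15, −0.48 and −1.07 in CEBPβ-A replicates 1, 2 and 3. It ran from −0.13 to 0.16 in the CEBPβ libraries, so CEBPβ-A replicate 1 lay barely below their range.

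The 4 listed guanylate-binding genes of the chromosome 5 cluster, Gbp6, Gbp8, Gbp9 and Gbp10, had lower values in each CEBPβ-A library than in any CEBPβ library. Gbp4, which shares exon bases with Gbp8 and Gbp9, and Gbp11 were not listed under those names. Gbp6 had 13.4, 15.2 and 9.13 FPKM in CEBPβ and 8.67, 8.01 and 5.20 in CEBPβ-A (log2 fold change −0.71, SE 0.22). Gbp10 had 5.45, 5.18 and 4.53 FPKM in CEBPβ and 3.82, 3.05 and 1.42 in CEBPβ-A (log2 fold change −0.74, SE 0.23). Gbp9 had means of 1.96 ± 0.359 and 0.924 ± 0.492 FPKM, and Gbp8 of 1.44 ± 0.360 and 0.836 ± 0.194, in CEBPβ and CEBPβ-A (n = 3 each). None of these 4 overlapped between groups, and none passed (limma adjusted p = 0.588 each). Gbp6 and Gbp10 share 1726 and 1792 exon bases with the overlapping gene Gm43302, which itself had 15.3, 19.4 and 15.2 FPKM in CEBPβ and 12.6, 10.5 and 7.76 in CEBPβ-A, so the 3 may not be separate measurements. In the chromosome 3 cluster, Gbp5, an activator of inflammasome assembly, and Gbp2b lay under the filter, at 1.20 ± 0.205 and 0.625 ± 0.157 FPKM in CEBPβ and 0.666 ± 0.213 and 0.290 ± 0.227 in CEBPβ-A.

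The immunity-related relatives and the Mx gene were less uniform. Irgm2, the third regulatory Irgm gene, had 1.52, 1.66 and 1.00 FPKM in CEBPβ and 1.56, 1.17 and 3.03 in CEBPβ-A, the only tested relative with a positive log2 fold change (0.25, SE 0.23). Its highest value lay in CEBPβ-A replicate 3, the library in which most members were lowest. The sum of Igtp and Irgm2, which share exon bases, was 13.2, 13.2 and 13.0 FPKM in CEBPβ and 12.3, 8.68 and 12.1 in CEBPβ-A. Ifi47, an effector-type relative, overlapped between groups (7.86 ± 1.80 against 6.48 ± 1.71 FPKM, CEBPβ first). Mx1, a dynamin-like antiviral GTPase induced by type I interferon, had 4.03, 5.28 and 4.63 FPKM in CEBPβ and 4.07, 3.02 and 1.29 in CEBPβ-A, with overlap (log2 fold change −0.64, SE 0.27). The very large GTPase gene Gvin1 was listed at 0 in CEBPβ-A replicate 3 and at 5.85 to 10.96 FPKM in the other 5 libraries. Irgq, a divergent relative, had 3.10 ± 0.0636 against 2.83 ± 0.187 FPKM, without overlap but with a small difference (log2 fold change −0.10, SE 0.085).

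**Figure D3:**
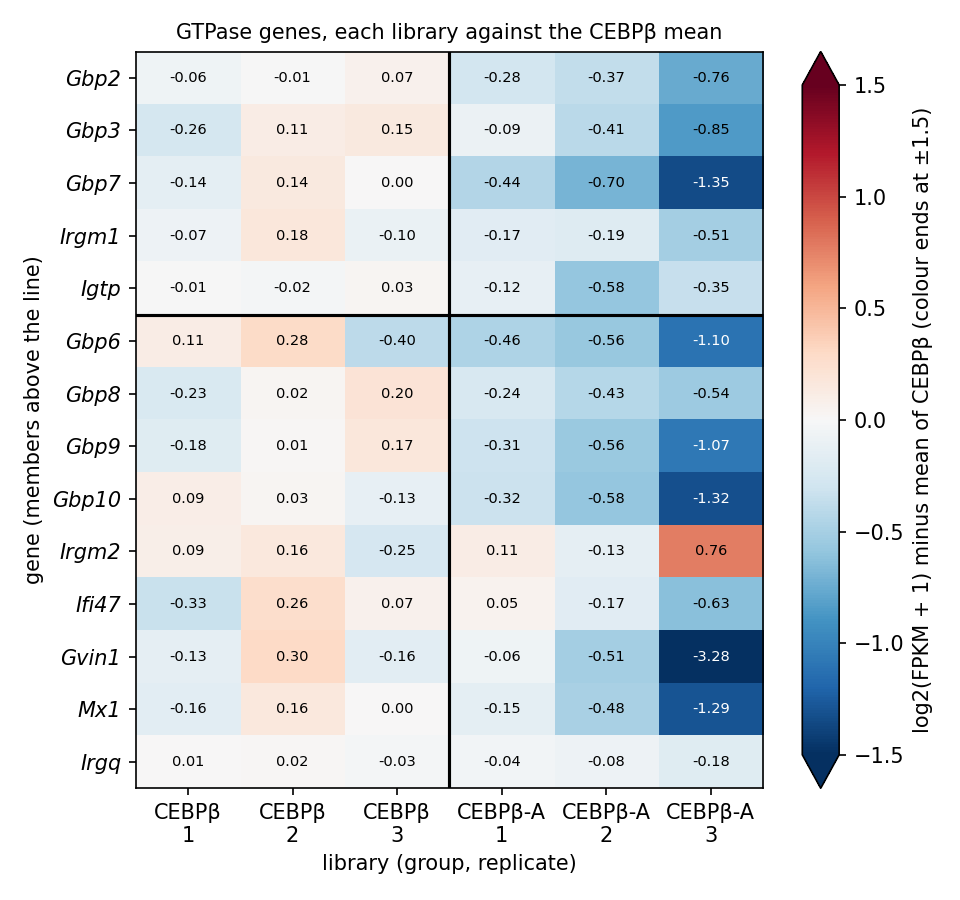
Difference of log2(FPKM + 1) of each library from the mean of the 3 CEBPβ libraries, for the 5 members (above the line) and the 9 tested relatives; columns are libraries, and blue is lower. In CEBPβ-A replicate 3 the lowest member is Gbp7 (−1.35) and the lowest relative Gvin1 (−3.28, listed at 0 there), and of the 14 genes Irgm2 alone lies above the CEBPβ mean (0.76).

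Upstream of the GTPases, the receptor chains of interferon gamma differed between the groups by less than their SE. Stat2, Irf9 and Irf1 had lower means in CEBPβ-A. Ifngr1 had 22.6 ± 1.32 FPKM in CEBPβ and 23.7 ± 1.20 in CEBPβ-A (log2 fold change 0.063, SE 0.079), and Ifngr2 had 42.5 ± 1.78 and 42.1 ± 2.23 (−0.015, SE 0.074). The receptor kinase Jak1 had 57.7 ± 1.58 and 50.5 ± 4.23 FPKM, without overlap, and Jak2 13.6 ± 1.03 and 12.5 ± 1.14, with overlap. Of 23 genes of receptors, kinases, transcription factors and inhibitors, 20 were tested, 0 passed in either direction by limma, and 15 were negative (median −0.12). At an unadjusted limma p under 0.05, 7 of 20 were lower and 2 higher, where 4.42% of all genes tested were lower. Among the lower, without overlap, were Ifnar1 (−0.30, SE 0.10), a receptor chain of type I interferon, Irf7 (−0.43, SE 0.14) and Usp18 (−0.78, SE 0.27). These genes were named after their values were seen.

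Among the transcription factors that bind the promoters of this family, Stat2 had 16.4, 16.9 and 16.7 FPKM in CEBPβ and 15.8, 12.1 and 8.27 in CEBPβ-A, without overlap (−0.48, SE 0.19). Irf9, the DNA-binding partner of STAT2, had 12.6 ± 2.10 and 9.75 ± 1.77 FPKM, with overlap. Irf1, the factor through which interferon gamma acts on ISREs, had 10.98, 17.4 and 17.7 FPKM in CEBPβ and 9.005, 10.5 and 18.3 in CEBPβ-A. The Irf1 means were 15.3 ± 3.79 and 12.6 ± 4.96 FPKM, with overlap (log2 fold change −0.30, SE 0.27). Its CEBPβ-A replicates 1 and 2 lay below every CEBPβ library, and replicate 3 was the highest of the 6 libraries. Gbp2, Gbp3, Gbp7 and Irgm1 were instead lowest in CEBPβ-A replicate 3. The part of these factors in the GTPase levels was not tested.

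Other regulators had differences of either sign. Irf8, a myeloid partner of IRF1, had 33.3 ± 0.598 FPKM in CEBPβ and 38.9 ± 3.57 in CEBPβ-A, without overlap (log2 fold change 0.21, SE 0.084). Nlrc5, an activator of MHC class I genes, had 3.20 ± 0.0604 and 2.25 ± 0.603 FPKM, without overlap (−0.39, SE 0.14). Socs1, the feedback inhibitor of JAK kinases, had 1.75 ± 0.507 and 1.61 ± 0.162 FPKM. None of these genes passed (limma adjusted p from 0.588 to 0.950 over the named regulators).

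The tested other targets of interferon gamma had a median log2 fold change close to that of all genes. Of 24 genes chosen as such targets 18 were tested, 0 passed in either direction by limma, 12 were negative and the median was −0.036. At an unadjusted limma p under 0.05, 1 of 18 was lower and 0 higher, where 4.42% of all genes tested were lower. The lower gene was Tap1 (4.38 ± 0.494 and 2.92 ± 0.552 FPKM, log2 fold change −0.46, SE 0.13), without overlap. Cxcl9, Cxcl11, Ido1, Nos2, Serping1 and Ubd were not listed, so the median does not cover them. For 3 of the 4 with the highest level the difference was smaller than its SE: B2m, the light chain of MHC class I, had a log2 fold change of 0.022 (SE 0.086), H2-D1 −0.026 (SE 0.12), Tapbp −0.072 (SE 0.067) and H2-K1 −0.074 (SE 0.099).

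Type I interferon effectors had lower means nearly throughout. Of 24 genes 23 were tested, 0 passed in either direction by limma, 22 were negative and the median was −0.41, and −0.21 without CEBPβ-A replicate 3. Per library, the median log2 difference from the CEBPβ mean was −0.11, −0.33 and −0.74 in CEBPβ-A replicates 1, 2 and 3. It ran from −0.15 to 0.16 in the CEBPβ libraries, so CEBPβ-A replicate 1 lay within their range. At an unadjusted limma p under 0.05, 14 of 23 were lower and 0 higher, where 4.42% of all genes tested were lower and 8.18% passed in either direction. Bst2, which tethers budding virus, had 99.4 ± 12.5 FPKM in CEBPβ and 72.5 ± 11.2 in CEBPβ-A, and the ubiquitin-like Isg15 58.5 ± 9.04 and 43.3 ± 5.55. Ifi27l2a had log2 fold change −0.32 (SE 0.12) and Oas1a, a maker of the RNase L activator, −0.31 (SE 0.12). The difference between this list and the interferon gamma targets was not tested. ISRE cores stood in the windows of 12 of 18 type I effectors with a window (66.7%) and of 3 of 14 other interferon gamma targets (21.4%). Among tested genes with a window the share was 3.88%, so both lists lay above it. The part of the core in the fold changes was not tested.

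**Figure D4:**
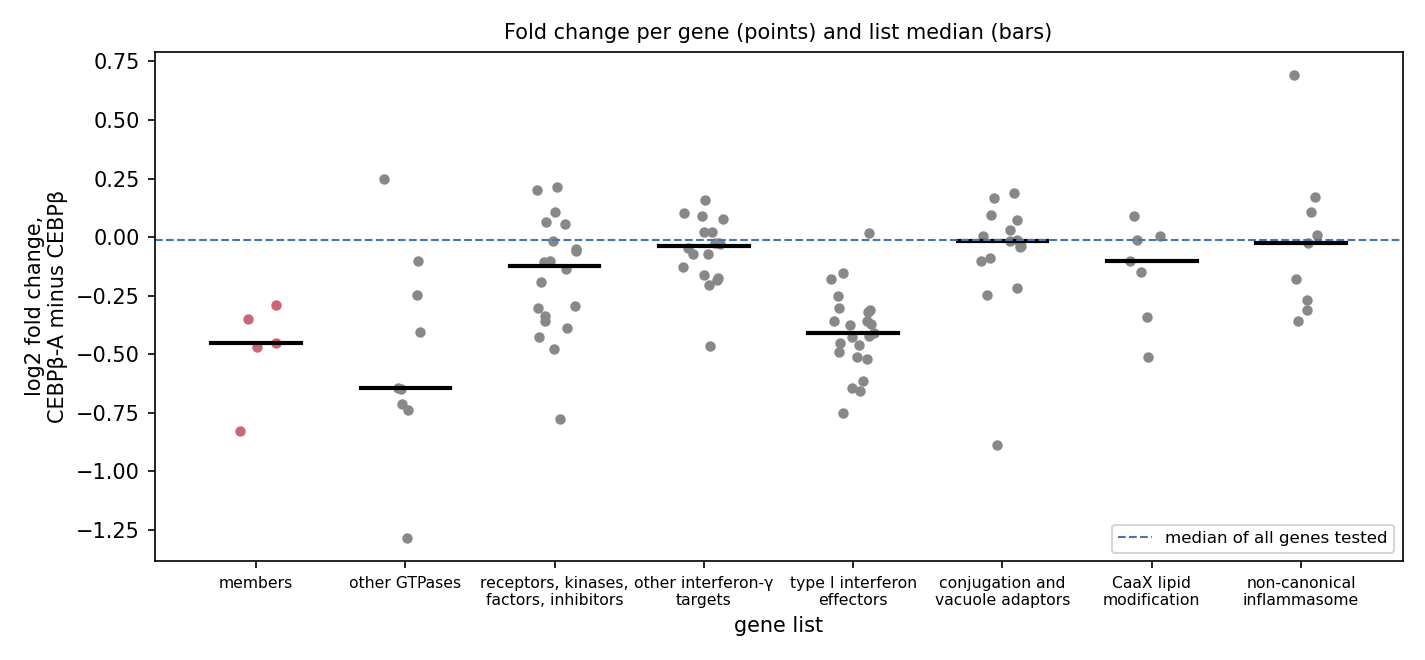
Log2 fold change of each tested gene (points), CEBPβ-A minus CEBPβ, for the members and the 7 gene lists, with the list medians (black bars) and the median of all tested genes (dashed line, −0.013). The members (median −0.45), the other GTPases (−0.64) and the type I effectors (−0.41) lie lowest.

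Genes of the machinery around the GTPases had fold changes of either sign. The ubiquitin-like conjugation genes load the GTPases onto vacuoles, and of 16 such genes and adaptors 15 were tested, 0 passed in either direction by limma, 9 were negative and the median was −0.017. Gabarap had a log2 fold change of 0.19 (SE 0.082), Sqstm1 0.0057 (SE 0.086), Gabarapl1 −0.088 (SE 0.097) and the conjugation factor Atg5 −0.017 (SE 0.077). Of 7 genes of CaaX lipid modification, by which some guanylate-binding proteins gain a membrane anchor, 0 passed in either direction by limma, 5 were negative and the median was −0.10, or −0.015, −0.026 and −0.056 without CEBPβ replicate 3, CEBPβ-A replicate 2 and CEBPβ-A replicate 3. Arhgdia had a log2 fold change of 0.090 (SE 0.091), Fnta 0.0062 (SE 0.088), Zmpste24 −0.15 (SE 0.11) and Rce1 −0.10 (SE 0.18). Of 9 genes of the non-canonical inflammasome, 0 passed in either direction by limma, 5 were negative and the median was −0.027. With single libraries left out this median ran from −0.21 (without CEBPβ replicate 3) to 0.035 (without CEBPβ-A replicate 3). Il18 had a log2 fold change of 0.17 (SE 0.11), Casp1 −0.18 (SE 0.080), the pore protein Gsdmd 0.11 (SE 0.067) and the membrane rupture protein Ninj1 0.69 (SE 0.25). At an unadjusted limma p under 0.05 the 3 lists had 2 of 15, 1 of 7 and 3 of 9 genes lower. They had 0, 0 and 1 higher, where 4.42% of all genes tested were lower and 8.18% passed in either direction.

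For each member the 3 tested genes with the most similar profile were found by the root-mean-square distance between log2(FPKM + 1) values centred on each gene's mean over the 6 libraries. For Gbp2 they were Mfsd7a (0.030), the peptide transporter Tap1 (0.051) and Arrdc3 (0.057), where Gbp2 itself varied by 0.28 around its mean. For Gbp3 they were Helz2 (0.072), Xaf1 (0.082) and Zbp1 (0.097), against 0.34 for Gbp3 itself. For Gbp7 they were Oas3 (0.087), Mga (0.11) and Usp18 (0.11), against 0.50. For Irgm1 they were Ammecr1 (0.020), Zcchc11 (0.037) and Hif1a (0.037), against 0.20. For Igtp they were Zkscan5 (0.063), Srcap (0.068) and Synj2 (0.075), against 0.22. Of these 15 genes 5 belong to the lists above (Tap1, Xaf1, Zbp1, Oas3 and Usp18), and 0 of the 5 stand beside Irgm1 or Igtp. The distances describe 6 libraries and carry no test.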

How the data were processed

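The authors deposited FPKM values per gene, per the file headers. These announce 9 FPKM columns, but 6 are present, 1 per library, and all 6 were analysed here. The submitters' processing notes name the build GRCm38. Aligner, quantifier, annotation release, row filter and handling of multi-mapped reads: not given in the sources used here. Stranded libraries were made from total RNA with a KAPA kit, per the labels' protocols. Depth is unknown: low FPKM values showed no clear whole-read steps (highest periodicity 0.140 to 0.198 per library, where 1 would be perfect), so precision rests on the spread of 3 libraries per group. Listed FPKM summed to 278907 to 313215 per library.

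The 9617 genes whose FPKM averaged 1 or more were tested on log2(FPKM + 1) with limma 3.58.1 (R 4.3.3), intensity trend, no covariate, two-sided, Benjamini-Hochberg threshold 0.05, and the script was tested on simulated data. GENCODE M21 gave transcript lengths (10472 genes by Ensembl identifier without version) and gene overlaps. RefSeq gave promoters (GRCm38.p6), matched by symbol for all 5 members. Named genes are the members, the listed relatives, regulators chosen by name (1 of them is not reported here), the 4 genes of highest FPKM per other list, and 3 nearest profiles per member. Alternatives were other pseudocounts, filters, scalings and priors, a replicate block, removal of the length trend and leaving out each library. The members and lists were chosen with earlier results of these data known.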

Additional observations from a re-analysis of the deposited data

How the results depend on the processing

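The 5 members kept a negative log2 fold change and an adjusted p over 0.05 in each alternative that tested them (17 for Gbp2, Gbp3, Irgm1 and Igtp, and 16 for Gbp7, which the filter at 5 FPKM removes). Their ranges were −0.56 to −0.33 for Gbp2, −0.63 to −0.25 for Gbp3, −1.05 to −0.57 for Gbp7, −0.35 to −0.18 for Irgm1 and −0.46 to −0.23 for Igtp, with limma adjusted p from 0.349 to 0.916 over all of them. The members' median ran from −0.56 to −0.33 with single libraries left out. The groups did not overlap for 4 members in 14 alternatives, for 5 without CEBPβ replicate 1 or CEBPβ-A replicate 1, and for 3 of 4 under the filter at 5 FPKM. Pseudocounts, filters, priors and the replicate block keep the order of libraries within a gene, and leaving out a library can only remove overlap. Only the scalings, quantile normalization and the removal of the length trend could have made a separated member overlap.

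Over all genes, where 5 passed, 0 of 6114 passed under the filter at 5 FPKM (limma, with 522 at an unadjusted p under 0.05), 2 after quantile normalization, 1 with the replicate block and 1 to 9 with single libraries left out (the 9 without CEBPβ-A replicate 3). Same-numbered libraries deviated together with correlations of 0.0993, 0.247 and 0.259, and each library correlated best with its own number, a hint from the data only. The labels do not tie the numbers, and with the replicate block the members' adjusted p was 0.372 (0.402 for Gbp3). List medians moved as follows. With the length trend removed, other interferon gamma targets had −0.093, and after quantile normalization the conjugation list had −0.056. With single libraries left out, the medians ran from −0.82 to −0.32 for other GTPases, −0.14 to −0.015 for CaaX modification and −0.21 to 0.035 for the inflammasome list. The causes were not tested. Unknown depth and 3 libraries a group limit all values.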

Other observations

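Rnf213, a giant ubiquitin ligase that coats intracellular pathogens beside the guanylate-binding proteins, was singled out after its values were seen. It had 21.1, 22.9 and 19.0 FPKM in CEBPβ and 18.1, 11.2 and 6.12 in CEBPβ-A. The groups did not overlap, and its log2 fold change, −0.89 with an SE of 0.31 (limma adjusted p = 0.588), was the lowest among the tested genes of the conjugation and adaptor list, none of which passed. Casp4, the sensor of cytosolic lipopolysaccharide that acts beside guanylate-binding proteins, was also named after its values were seen. It had 10.8, 9.73 and 9.62 FPKM in CEBPβ and 8.67, 8.55 and 7.37 in CEBPβ-A, without overlap (log2 fold change −0.27, SE 0.094, limma adjusted p = 0.588).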
